A study of Drosophila melanogaster with 16 samples.

Results

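The expression profile of young Drosophila motor neurons was read from 5 arrays, each hybridized with RNA from 1 pool of GFP-positive motor neurons of flies aged 7 days after eclosion, out of 16 arrays in the series. The members were taken by the age on their labels alone, and no measured value was used to choose them. In all groups the labels give female flies that aged at 25 °C in a 12 h light and dark cycle, the study names w1118 as the strain of the arrays, GFP was driven by D42-Gal4, for which it lists a recombined D42-Gal4, 10XUAS-GFP stock, and the labels give no other treatment. Cells of the lower thorax were dissociated and sorted, each pool came from 5 flies, and the other 11 arrays hold pools of 35-day-old flies (n = 5) and 45-day-old flies (n = 6) prepared the same way. The driver decides which cells were sorted, so the profile describes D42-positive cells of the thoracic ganglion and whatever other RNA passed the sort. In such bulk pools, fewer cells of a type and less RNA per cell cannot be told apart.

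Fly motor neurons send glutamatergic axons to muscles, and their cell bodies lie in the ventral ganglion, where they receive mainly cholinergic input from other neurons. A neuron of this kind is expected to carry transcripts for voltage-gated channels, for the synaptic vesicle cycle, for mitochondrial energy supply and for protein synthesis. The array used here was a custom design enriched in membrane channel and calcium-binding protein genes, so some genes have 1 feature (a probe entry, which can be printed in several spots) and others have many.

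A level is given throughout as the mean over a gene's features of the log2 intensity minus the 75th percentile of the same array. A level of 0 is therefore as bright as the spot at the 75th percentile, and a level of 1 is 2 times as bright. Probes differ in how strongly they bind, so the order of genes is an order of signal and not of transcript number. A gene was counted as well above background on an array where at least 1 of its features carried the scanner software's flag of that name, and below that line a level is only an upper bound. Levels are means ± SD over the 5 pools unless stated otherwise.

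The 5 arrays held 62.5% to 67.1% of spots well above background and no saturated spot, and 12973 gene symbols could be read on them. Features printed in more than 1 spot differed by a median SD of 0.06 between spots of an array and of 0.44 between pools (log2, 5546 features). The spread between pools was therefore 7.42 times the spread of printing and hybridization within an array. Over the genes well above background on all 5 arrays, Pearson's r across genes between 2 pools lay between 0.89 and 0.95, as a description of genes that are not independent replicates. The flies' labelled sex was checked on the array: of 14 genes of chromosome Y, 8 were well above background on no array and 1, the repeat-derived Su(Ste):CR42418, on all 5. WDY was on 4 arrays, at a mean of -9.42, and the other 4 on 1 or 2. The RNA genes roX1 and roX2, which act in male dosage compensation, were on 5 arrays (lncRNA:roX1, mean -4.14) and on 3 (lncRNA:roX2, mean -7.81, with pool 2 at -3.79). The yolk protein genes Yp1, Yp2 and Yp3, which are transcribed in the female fat body, were well above background on all 5 arrays.

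Of the 12973 genes, 7854 (60.5%) were well above background on all 5 arrays and 2093 (16.1%) on none (716 with the scanner's looser flag for a positive and significant signal), while 1113, 713, 570 and 630 genes were on 1, 2, 3 and 4 arrays. The median level was -0.98 for genes on all 5 arrays and -9.69 for genes on none. Detection rose with the number of features. It reached all 5 arrays for 53.3% of 7208 genes with 1 feature, for 67.9% of 5030 genes with 2 to 4 features and for 81.2% of 735 genes with 5 or more. When a majority of a gene's features had to carry the flag, 6539 genes (50.4%) were on all 5 arrays and 3103 on none. The 421 genes with custom features were on all 5 arrays in 68.6% of cases, against 60.3% of the other 12552 genes, but under the majority rule the shares were 50.6% and 50.4%. Within a gene, features could differ widely: among 4012 genes with several features that were on all 5 arrays, the median distance between the dimmest and the brightest feature was 4.65 log2 units.

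Genes on the small chromosome 4 were detected more often than those elsewhere. Of 85 such genes on the array, 80 (94.1%) were well above background on all 5 arrays and 1 on none, and the share was 77.6% under the majority rule, against 50.2% for genes of all other chromosomes. Among genes with a single feature, 17 of 20 on chromosome 4 (85%) were on all 5 arrays, against 53.2% of the 7188 others. The median level was -0.65 for chromosome 4 and -3.88 for the rest. At the older ages 89.4% of chromosome 4 genes were on all 35-day-old arrays and 88.2% on all 45-day-old arrays, against 58.6% and 56.0% of the other genes. No test was run on genes as replicates.

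Among genes with a symbol, the brightest of the young sorted pools were mostly those of protein synthesis and mitochondrial energy supply. Of the 100 brightest features, 23 had no gene symbol and are not in this ranking. Genes with custom features had a median of 22 features, against 1 for other genes, and dim features lower a gene's mean. When a gene took its brightest feature instead, 58 of the 100 brightest genes remained, so the ranking depends on this rule. Of the 30 brightest genes, 21 encoded cytosolic ribosomal proteins and 4 encoded subunits of the respiratory chain or ATP synthase. The remaining 5 were the long noncoding RNA genes lncRNA:mimi and lncRNA:CR34335, the mitochondrial phosphate carrier gene Mpcp2, the histone H4 gene His4r and whe. lncRNA:mimi led with levels of 5.72, 6.15, 5.67, 5.31 and 6.13 in pools 1 to 5, a mean of 5.80 ± 0.35 or 55.5 times the 75th percentile. RpL8, a protein of the large ribosomal subunit, followed at 5.67, 6.05, 5.53, 5.13 and 5.88 (5.65 ± 0.35), and RpS25 of the small subunit at 5.57, 5.81, 5.52, 4.95 and 5.99 (5.57 ± 0.39). Within pools, lncRNA:mimi was brighter than RpL8 in 5 of 5 and RpL8 brighter than RpS25 in 4 of 5.

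The other ribosomal protein genes among the 30 spanned a narrow band, with means of 5.10 (RpS3A) to 5.53 (RpS30). RpS15Ab at 5.16 ± 0.34 has a near-identical copy in the genome, RpS15Aa, and a probe cannot be assumed to tell them apart. The energy genes of the group were COX5B (5.20 ± 0.31) and COX5A (5.10 ± 0.36) of cytochrome c oxidase, UQCR-14 of complex III (5.18 ± 0.35) and blw, the alpha subunit of ATP synthase (5.17 ± 0.33). Mpcp2 was at 5.37 ± 0.23 and His4r at 5.33 ± 0.33. The gene whe had the largest SD of the 30, with levels of 5.36, 5.96, 4.42, 4.94 and 5.82 in pools 1 to 5.

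**Figure D1:**
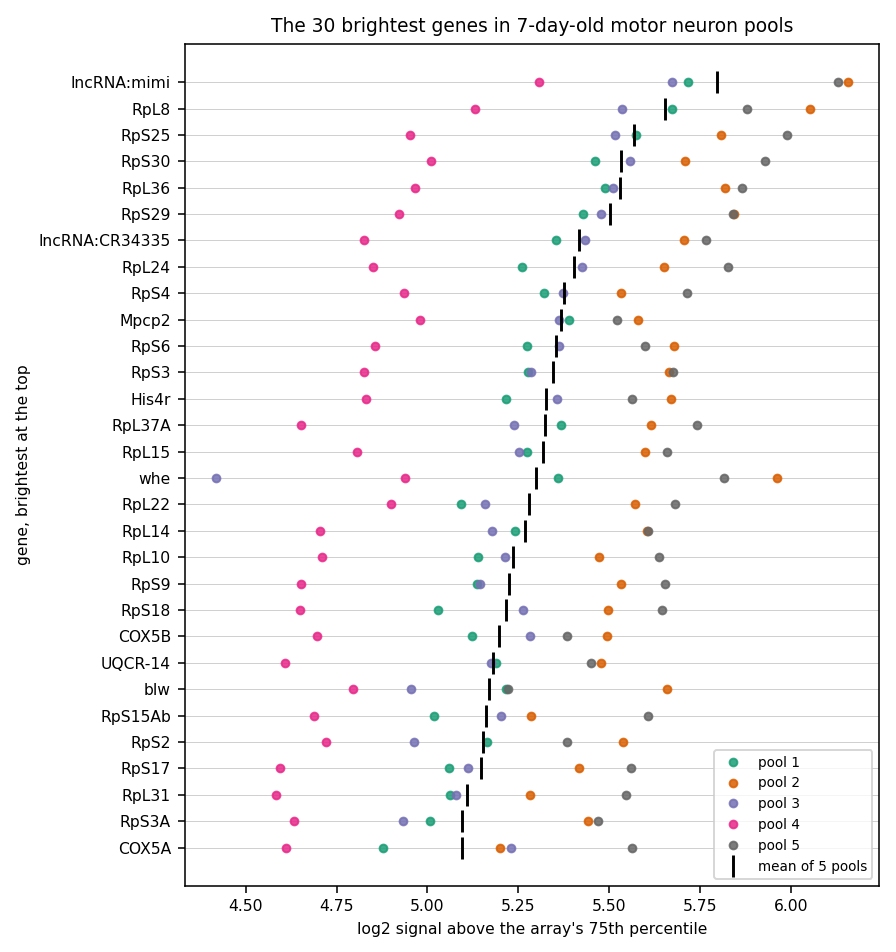
Levels of the 30 brightest genes in 7-day-old motor neuron pools, in log2 units above the 75th percentile of the array (x axis), with 1 point for each of the 5 pools and a black bar for their mean. Pool 4 gave the lowest value for 29 of the 30 genes, and the means run between 5.10 and 5.80.

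The pools shifted together across this group. Pool 4 was lowest for 29 of the 30 genes and pool 3 for the remaining gene, whe, while the highest value fell in pool 5 for 19 genes and in pool 2 for 11. The median level of the 30 was 5.25, 5.60, 5.26, 4.82 and 5.65 in pools 1 to 5. Pool 4 also had the highest 75th percentile of the 5 arrays, at an intensity of 15090 against 7135 to 10809 for the others. After quantile normalization, which gives all arrays one distribution, pool 4 was lowest for 13 of the 30 and the medians lay between 5.22 and 5.29. With median scaling pool 4 was again lowest for 29 of the 30.

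Over the 100 brightest genes, down to eIF1 at 4.33, there were 41 cytosolic ribosomal protein genes, 19 of the respiratory chain and ATP synthase, 4 of the V-ATPase (the vesicular proton pump), 3 translation factors, 2 glycolytic enzymes and 4 long noncoding RNA genes. The 41 are 48.2% of the 85 ribosomal protein genes on the array, and the 19 are 22.1% of the 86 respiratory and ATP synthase genes. Genes of nerve cells appeared within the same 100. They were Gad1 at 4.89 ± 0.21, which encodes the GABA-producing glutamic acid decarboxylase, Snap25 at 4.52 ± 0.18, a membrane fusion protein of the synapse, and Sap47 at 4.42 ± 0.20, a synapse-associated protein. Outside the lists, and picked after their values were seen, stood 7B2 (5.05 ± 0.17), a chaperone of a neuropeptide-processing convertase, the ADP/ATP carrier gene sesB (4.87 ± 0.22) and hig (mean 4.77), a protein of the synaptic cleft.

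The young profile was shared with the older groups at this end. Of the 100 brightest genes at 7 days, 91 were among the 100 brightest at 35 days and 91 among those at 45 days, and all 30 of the brightest were in both. No member of the 30 or of the 100 passed the threshold (limma, adjusted p under 0.05 and more than 2-fold) against either older age, where 13 of 12973 genes (0.1%) passed against 35 days and 0 (0%) against 45 days. The median difference of the 30, 7 minus 35 days, was 0.09, against 0.36 over all genes tested, and 7 minus 45 days it was 0.09 against 0.23. Over only the genes well above background on all arrays of either age compared, the median difference was smaller. It was 0.12 for 7 minus 35 days and 0.16 for 7 minus 45 days. The 7-day-old and 35-day-old arrays lay in different rows of their slides, so age and row cannot be told apart between them.

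Protein synthesis and energy genes were on all 5 arrays more often than the 60.5% of all genes, to degrees that differed between lists. Of 85 cytosolic ribosomal protein genes, 82 were well above background on all 5 arrays with a list median of 4.14. The 2 on no array were RpL10Aa and RpS19b, while RpS19a, the paralog of RpS19b, was on all 5 with a mean level of 4.47. The 66 mitochondrial ribosomal protein genes had 65 on all 5 arrays (median level 1.103), led by mRpL33 (3.51 ± 0.62), mRpL42 (3.29 ± 0.44) and mRpL13 (3.19 ± 0.24). Of 86 respiratory and ATP synthase genes, 72 were on all 5 and ND-49L and COX6AL on none, with a median level of 2.60. All 32 proteasome genes were on all 5 arrays (median 1.22), with Prosalpha5 at 2.59 ± 0.36, the ATPase subunit Rpt6 at 2.46 ± 0.18 and Prosbeta5 at 2.12 ± 0.29. Of 49 translation factors 40 were on all 5, with eEF1beta (4.49 ± 0.30), eIF3i (4.37 ± 0.17) and eIF1 (4.33 ± 0.26) at the top, and eIF3d2, eIF3f2, eIF4E3 and eIF4E4 were on none. The V-ATPase had 23 of 34 subunit genes on all 5 arrays, led by Vha13 (4.99 ± 0.22), Vha68-1 (4.81 ± 0.16) and ATP6AP2 (4.79 ± 0.24), and Vha100-4, Vha16-2, Vha16-4, Vha36-2 and VhaAC39-2 on none. The antioxidant list was complete on all 5 arrays (19 of 19), with the peroxiredoxin Prx5 at 4.51 ± 0.21, the thioredoxin Trx2 at 3.87 ± 0.12 and the glutathione transferase GstD1 at 3.59 ± 0.51. Among 13 glycolytic genes, 10 were on all 5 arrays and 1, Pglym87, on none, with enolase (Eno) at 4.71 ± 0.25, pyruvate kinase (PyK) at 4.45 ± 0.15 and Pgi at 3.67 ± 0.62.

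**Figure D2:**
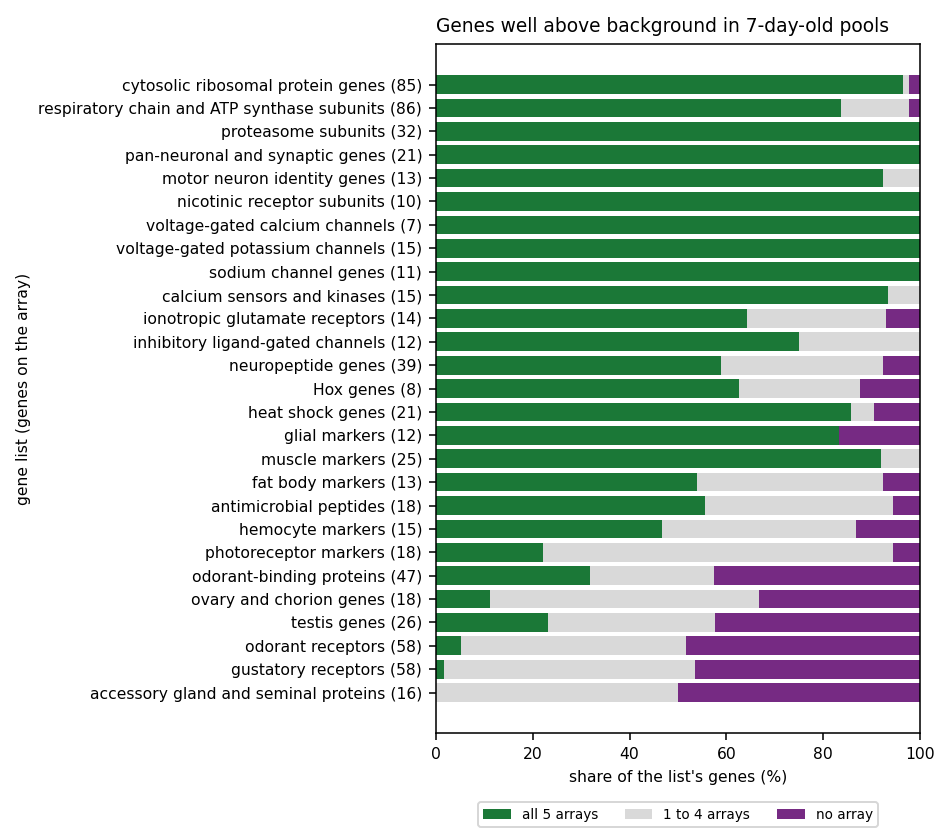
Share of the genes of each list (y axis, number of genes on the array in brackets) that were well above background on all 5 arrays of 7-day-old pools (green), on 1 to 4 arrays (grey) or on no array (purple), in percent of the list. All 21 pan-neuronal genes were on all 5 arrays, against 3 of 58 odorant receptors and 0 of 16 accessory gland and seminal protein genes.

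The sorted cells carried the transcripts of neurons on every young array. All 21 pan-neuronal and synaptic genes were well above background on all 5 arrays, with a list median of 1.81, 1.85, 1.97, 1.59 and 1.81 in pools 1 to 5. Behind Snap25 and Sap47 stood Syn, the vesicle protein synapsin, with 3.62, 3.78, 4.01, 3.32 and 3.60 in pools 1 to 5. The neuronal RNA-binding protein gene elav had levels of 1.83, 2.10, 1.97, 1.59 and 1.81, and the vesicle fusion gene nSyb of 2.35, 2.53, 2.14, 2.13 and 2.12. Both genes varied by less than 1 log2 unit over the 5 pools. The calcium sensor of release Syt1 was at 2.14 ± 0.14, with all 74 of its features on all 5 arrays. Among 7 synaptotagmins, 5 were on all 5 arrays and Syt4 (3.55 ± 0.22) and Syt7 (2.62 ± 0.21) were brighter than Syt1. At the lower end stood brp, the active zone protein Bruchpilot, at -2.08 ± 0.26, although its 95 features ran between -5.57 and 3.23.

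The list of motor neuron identity genes held transcription factors and BMP pathway genes, and stood at intermediate signal. Of 13 on the array, 12 were well above background on all 5 arrays, with a list median of -0.44. They were led by the BMP pathway genes Med (1.58 ± 0.32), wit (1.57 ± 0.48) and sax (1.22 ± 0.55), which receive and relay the growth signal from muscle at fly nerve terminals. The signal of these pathway genes was not taken as evidence of motor neuron identity. Among the transcription factors of motor neuron identity, Lim3 had levels of 0.59, 0.48, 1.35, 0.38 and 0.77 in pools 1 to 5, HGTX, also called Nkx6, of 0.26, -0.09, 0.28, 1.26 and 0.28, and zfh1 of -0.44, -0.79, 0.56, -0.86 and -0.65. The islet homologue tup was at -1.72 ± 0.40 and the Hb9 homologue exex at -2.19 ± 0.65. The even-skipped gene eve, which marks dorsally projecting motor neurons in the embryo, was well above background on 2 arrays only. No feature of the array carries the name of VGlut, the vesicular glutamate transporter that defines glutamatergic cells, so that marker was not analysed here.

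Some genes of other transmitters were bright in the same pools, and others lay below the 75th percentile. Gad1 had levels of 4.90, 5.00, 4.81, 4.59 and 5.16 in pools 1 to 5, and the choline transporter gene ChT of 4.36, 4.47, 4.16, 4.01 and 4.06. ChAT, the acetylcholine-producing enzyme, was at 2.45 ± 0.20, the acetylcholine-degrading Ace at -0.53 ± 0.30, the GABA-degrading Gabat at -0.99 ± 0.51 and the glial and neuronal GABA transporter gene Gat at 2.59 ± 0.33. Of these, only Gad1 and ChT stood above 4 in each of the 5 pools. Which cells of the sorted pools carried these transcripts was not tested. The vesicular transporters of the same transmitters were dimmer, with VAChT at -1.93 ± 0.91 and VGAT at -5.25 ± 0.62. VGAT rested on 1 of 4 features that was on all 5 arrays, and its features ran between -9.49 and 1.1. The 3 genes of glutamate metabolism on the array were on all 5 arrays, with Gdh at 4.14 ± 0.24, Got2 at 2.74 ± 0.31 and Got1 at 2.18 ± 0.54. Of 11 monoamine genes 8 were on all 5 arrays, with a list median of -3.47, led by the vesicular monoamine transporter gene Vmat (1.15 ± 0.63), Ddc (0.62 ± 0.46) and Trhn (-1.71 ± 1.75). Monoamine genes varied more, with a median SD of 1.57 over those on all 5 arrays, against 0.25 for the 4 acetylcholine genes. The dopamine transporter gene DAT had levels of -1.63, -1.95, -1.74 and -3.48 in pools 1 to 4 and of -8.53 in pool 5.

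Channel genes were the class the array was built to measure. All 10 nicotinic acetylcholine receptor subunits were well above background on all 5 arrays, led by nAChRbeta1 (2.83 ± 0.22), nAChRalpha7 (1.70 ± 0.15) and nAChRalpha3 (0.34 ± 0.16). Every feature of the first 2, 25 and 44 of them, was on all 5 arrays. The dimmest was nAChRbeta3 at -5.12 ± 1.02, with 7 of 12 features on all 5. Of 12 inhibitory ligand-gated channels, 9 were on all 5 arrays and the GABA receptor Rdl stood first, with 2.21, 2.07, 2.19, 2.00 and 2.13 in pools 1 to 5. It was followed by pHCl-1 (0.41 ± 0.25) and Lcch3 (0.10 ± 0.46).

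Of 14 ionotropic glutamate receptor genes 9 were well above background on all 5 arrays, 4 on some and 1 on none, with the NMDA receptor subunit Nmdar1 at 0.06 ± 0.43, the AMPA-type GluRIB at -0.999 ± 0.421 and the auxiliary protein gene Neto at -1.22 ± 0.30. The subunits known from the muscle side of the fly neuromuscular junction were at the dim end. GluRIIC was on no array, with levels between -10.04 and -9.68. GluRIIB was on 1 array (mean -9.52), GluRIIA and GluRIIE on 4 each (means -7.58 and -9.09), and GluRIID passed on all 5 arrays without any single feature doing so (mean -8.28). For GluRIIA the pools were -7.35, -9.06, -3.86, -10.00 and -7.61, and pool 3 was the highest.

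The voltage-gated calcium channel genes were all on all 5 arrays (7 of 7). The presynaptic calcium channel gene cac had levels of 1.81, 1.57, 1.62, 1.08 and 1.68 in pools 1 to 5 and all 156 features on all 5 arrays, and the accessory subunit gene stol was at 1.09 ± 0.38. The L-type channel gene Ca-alpha1D was at 0.61 ± 0.39 and the T-type channel gene Ca-alpha1T at -0.53 ± 0.35. All 15 voltage-gated or calcium-gated potassium channel genes were on all 5 arrays, and Sh (1.28 ± 0.10), SK (0.83 ± 0.12) and the Slo-binding protein gene dysc (0.17 ± 0.26) led. The spread of Sh and SK over the pools was below the median SD of 0.49 over all genes on all 5 arrays. The calcium-gated channel gene slo was dimmest at -6.30 ± 0.90, where 67 of 227 features were on all 5 arrays and the brightest stood at 2.91.

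All 11 sodium channel genes were on all 5 arrays, led by Mid1 (1.55 ± 0.24), unc79 (0.39 ± 0.29) and Teh2 (0.13 ± 0.21). The sodium channel gene para, which carries the action potential in flies, was at -1.18 ± 0.31 over 591 features, the most of any gene, and every one of them was on all 5 arrays. Its features ran between -3.72 and 4.31, and features of a gene can share a probe sequence, so their number is not a number of independent measurements. Among 15 leak, inward rectifier and Ih channel genes 10 were on all 5 arrays, with Ih at 0.14 ± 0.33, CG1688 at -0.23 ± 0.53 and Task7 at -0.51 ± 0.30.

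**Figure D3:**
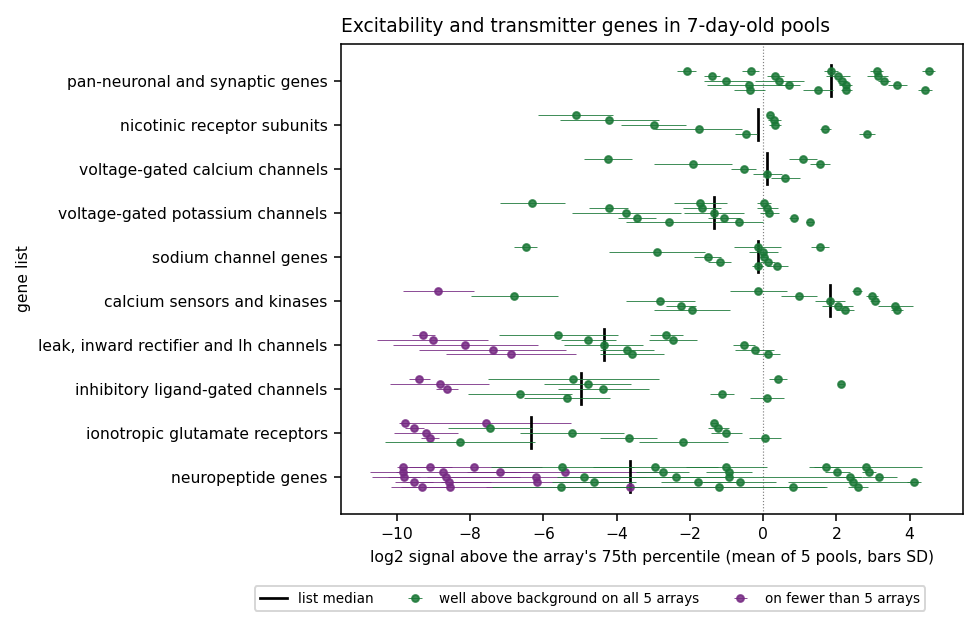
Level of each gene in 10 lists of neuronal genes, in log2 units above the 75th percentile (x axis; mean of the 5 pools of 7-day-old flies, bars SD), with the list median as a black line. Genes on all 5 arrays are green and the others purple, and the median of the pan-neuronal list is 1.86, against -6.33 for ionotropic glutamate receptors.

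Of 15 calcium sensor and kinase genes 14 were on all 5 arrays, with a list median of 1.84, led by Cam, which encodes calmodulin, at 3.71, 3.85, 3.68, 3.42 and 3.65 in pools 1 to 5, by the neurocalcin gene Nca (3.61 ± 0.49) and by the frequenin gene Frq1 (3.05 ± 0.14). All 13 pump and calcium store genes were on all 5 arrays, with a lower list median of -0.57 and the sodium pump subunit nrv3 at 4.15 ± 0.14, the secretory pathway calcium pump SPoCk at 2.87 ± 0.12 and nrv2 at 2.53 ± 0.46. Axonal transport motors were on all 5 arrays for 14 of 15, with the dynein light chain gene ctp at 3.63 ± 0.22, Klc at 2.80 ± 0.17 and Aplip1 at 2.22 ± 0.09. Of the 30 Dpr and DIP proteins, which pair nerve cells with their partners, 28 were on all 5 arrays, led by dpr18 (2.28 ± 0.27), dpr7 (2.17 ± 0.32) and DIP-alpha (2.09 ± 0.47).

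Neuropeptide genes held both steady and pool-dependent members. Of 39 genes 23 were on all 5 arrays and Eh, natalisin and Dsk on none. Proc, which encodes proctolin, a peptide released onto muscle in insects, was brightest with 4.32, 4.25, 4.22, 4.00 and 3.86 in pools 1 to 5. Nplp1 (3.17 ± 0.48) and spab (2.90 ± 0.19) followed. AstA, the allatostatin A gene, had 4.45, 3.02, 0.60, 2.01 and 3.94, and Lk, the leucokinin gene, had 2.05, -4.80, 3.59, -3.55 and -1.91 in pools 1 to 5. Lk was thus more than 8 log2 units apart between pools 3 and 2, with both of its features on all 5 arrays. Its SD of 3.61 was the sixth largest among the 7854 genes on all 5 arrays.

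Of 8 Hox genes 5 were on all 5 arrays, a share of 62.5% beside 60.5% of all genes. Antp, the Hox gene of the second thoracic segment, was brightest, with -0.56, -0.57, 0.02, -0.12 and 0.18 in pools 1 to 5. Ubx (-3.23 ± 0.99), pb (-3.23 ± 0.91) and abd-A (-4.94 ± 0.49) were on all 5 arrays at lower signal, and Dfd of the head was on none. Ubx had 1 of 2 features on all 5 arrays, and pool 1 stood apart at -1.53, against -3.25 to -3.95 in the other pools.

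Stress and activity genes were detected in all young pools. Of 21 heat shock genes 18 were on all 5 arrays, and Hsc70-2 and CG4456 on none. Hsp22 had levels of 4.61, 4.82, 4.42, 3.36 and 3.83 in pools 1 to 5, Hsp70Ba of 4.25, 4.47, 3.79, 3.53 and 3.49, and Hsp23 of 4.16, 4.15, 4.03, 3.01 and 3.26. For each of these 3, pools 1, 2 and 3 lay above pools 4 and 5. The Hsp70 genes are near-identical copies and are reported as uncertain. All 8 activity and early response genes were on all 5 arrays, led by Arc1 (2.20 ± 0.43), sr (0.37 ± 1.81) and puc (-1.21 ± 0.27). Whether the dissociation and sort raised these genes was not tested, since the series holds no unsorted pool.

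Markers of other cell types were present beside the neuronal ones, to different extents. The astrocyte gene alrm had levels of 3.82, 4.41, 4.40, 4.33 and 4.08 in pools 1 to 5, Eaat1 was at 1.39 ± 0.66 and the glial transcription factor gene repo at 0.00 ± 0.47. Of 12 glial markers 10 were on all 5 arrays, and gcm and gcm2, which act in the embryo, were on none. The summed brightness of the glial list was 21.4 to 36.9 times the 75th percentile over the young pools, 17.0 to 28.4 times at 35 days and 11.53 to 24.6 times at 45 days. The same sum for the pan-neuronal list was 103.9 to 128 times at 7 days, 87.6 to 109 times at 35 days and 89.3 to 114 times at 45 days. Such a sum is weighted to the brightest members: alrm had the highest mean of the glial list at 4.21, while the list median was -3.40. The part of sorted or free glial RNA in the profile was not tested.

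Muscle genes were on all 5 arrays for 23 of 25, but dim, with a list median of -4.10. The brightest were Mlp84B (1.95 ± 0.58) and the actin gene Act79B (0.96 ± 1.37), followed by the myosin heavy chain gene Mhc, with 0.80, -0.91, 0.73, -1.68 and 1.20 in pools 1 to 5. Pools 2 and 4 were the lower ones for Mhc, and the flight muscle actin gene Act88F was well above background on 4 of 5 arrays. The muscle list summed to 4.07 to 21.6 times the 75th percentile over the 7-day-old pools, 8.67 to 22.3 times at 35 days and 14.5 to 41.2 times at 45 days. Fat body markers were on all 5 arrays for 7 of 13. Yp3 had levels of 0.10, 2.40, 3.12, 1.64 and 2.54, Yp1 averaged 1.42 ± 0.89 and the lipoprotein gene apolpp 1.07 ± 0.92. The larval serum protein gene Lsp2 was at -1.38 and -1.83 in pools 2 and 3 and between -9.87 and -7.80 in the other pools. Fbp2 was on no array.

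Markers of blood cells, trachea, eye and gonads had low list medians, between -9.32 and -6.43, and were on all 5 arrays less often than the 60.5% of all genes. Of 15 hemocyte markers 7 were on all 5 arrays, led by crq (-0.98 ± 0.59), PPO2 (-4.07 ± 0.96) and ush (-5.45 ± 0.38), and PPO3 and He were on none. The hemocyte list summed to 0.56 to 1.43 times the 75th percentile. Of 18 photoreceptor markers 4 were on all 5 arrays. They were eys (1.60 ± 0.53), norpA (0.70 ± 0.16), rdgC (-0.98 ± 0.38) and the rhodopsin gene ninaE, which passed on 1 of 4 features at a mean of -7.31, and Arr2 was on none. Tracheal markers reached all 5 arrays for 5 of 10, led by trh (-0.80 ± 0.46), tyn (-4.78 ± 0.95) and pio (-6.47 ± 1.44), with Osi19 and Osi20 on none. Testis genes were on all 5 arrays for 6 of 26 and on none for 11, with bol (0.53 ± 0.37), twe (-2.21 ± 0.46) and mia (-3.04 ± 2.26) the brightest. Ovary and chorion genes were on all 5 for 2 of 18, Cp7Fb (-4.61 ± 2.15) and Vm34Ca (-6.93 ± 1.30), with 6 on none.

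Several gene families of sensory, reproductive and barrier tissues had a high share of members on no young array. Of 58 odorant receptor genes 28 (48.3%) were on no array and 3 on all 5, namely Or85f (-3.25 ± 0.86), Or43b (-3.37 ± 0.59) and Or85b (-5.90 ± 0.62). Of 58 gustatory receptor genes 27 (46.6%) were on none, and Gr28b alone was on all 5 (-6.62 ± 1.57). Accessory gland and seminal protein genes were on none for 8 of 16 and on all 5 for 0, and Osiris genes, which serve cuticle formation, for 12 and 0 of 23. Cuticular Cpr genes were on none for 25 of 68, while 12 were on all 5, led by Cpr49Ag (1.42 ± 0.68), Cpr65Au (-0.84 ± 1.89) and Cpr65Ax2 (-2.29 ± 0.31). Over all genes 16.1% were on none, a count of 2093 that fell to 716 with the scanner's looser flag for a positive and significant signal. Odorant-binding protein genes were on none for 20 of 47, yet Obp44a had 2.97, 3.83, 4.72, 2.92 and 4.40 in pools 1 to 5 and ranked 179th of all genes, ahead of Obp8a (0.09 ± 0.91) and Obp56d (-2.11 ± 0.87). Ionotropic receptor and pickpocket channel genes were on none for only 2 of 60 and 2 of 30, but these were custom-enriched families with many features each, and their list medians were -9.41 and -9.32. The brightest were Ir76a (-4.34 ± 0.83), Ir62a (-7.04 ± 1.41) and Ir68a (-7.68 ± 1.78) among ionotropic receptors, with Ir75a and Ir7b on none, and ppk8 (-4.45 ± 1.96), ppk28 (-6.05 ± 2.23) and ppk29 (-7.24 ± 0.78) among pickpocket channels, with ppk10 and ppk27 on none.

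The spread between pools depended on the signal. Over the 7854 genes on all 5 arrays the median SD was 0.49, and the middle 90% of genes had SDs of 0.16 to 1.61. In 4 groups of near-equal size by mean level, the median SD was 0.89, 0.67, 0.42 and 0.29 with increasing brightness, and 1389 genes (17.7%) had an SD above 1. In the brightest of these groups 24 of 1964 genes did. The least variable gene was CG12091, at 3.32 with an SD of 0.04.

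The 10 most variable genes on all 5 arrays were CG12239, Jon25Bii, PGRP-SC2, CG17192, CG12374, Lk, Jon25Biii, Jon99Ciii, CG15199 and TBC1D16, with SDs between 3.20 and 4.05. CG12239 had levels of 1.76, 2.55, -4.84, 3.40 and -4.64 in pools 1 to 5, so that pools 3 and 5 lay more than 6 log2 units below the others. Jon25Bii, a serine protease of the Jonah family known from the fly midgut, had -4.01, 2.13, -3.81, -7.30 and 1.08, and PGRP-SC2, a gut peptidoglycan amidase, had -4.77, 1.30, -4.26, -7.99 and -0.18. In both genes pools 2 and 5 were high and pool 4 was lowest. CG12374 had 0.93, 5.32, -0.97, -2.76 and 5.16, again with pools 2 and 5 high and pool 4 lowest, and TBC1D16 had -1.83, -3.68, 2.82, -3.51 and 2.54, with pools 3 and 5 high.

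The pattern of pools 2 and 5 above the other 3 held for 32 of the 50 most variable genes and for 919 of the 7854 genes on all 5 arrays (11.7%). This pair of pools was chosen with the values of the most variable genes known, so the 32 are no separate support. The share over all genes was not set against a random order of pools. The pattern covered the Jonah proteases well above background on all 5 arrays, which were 7 of 14. Jon65Aiv, the brightest, had 1.56, 5.02, 1.54, -1.41 and 5.30 in pools 1 to 5, Jon99Fii 0.39, 3.63, -1.79, -3.54 and 3.42, and Jon65Ai 0.24, 3.52, -1.70, -3.46 and 3.45. The list median over all 14 was -4.83, 0.03, -6.02, -7.74 and -0.02 in pools 1 to 5. Pool 2 lay on slide 1 and pool 5 on slide 2, and the median difference of the list, slide 1 minus slide 2, was 1.73, against 0.08 over all genes. Summed, the Jonah proteases came to 0.68 to 81.7 times the 75th percentile over the 7-day-old pools, 2.96 to 58.6 times at 35 days and 2.48 to 35.5 times at 45 days. Outside the lists, the trypsin gene betaTry (1.91, 4.87, 0.50, -1.76 and 5.40) and yip7 (0.31, 3.45, -0.35, -3.44 and 3.82), both picked after their values were seen, also had pools 2 and 5 above the rest and pool 4 lowest. The cause of this variation was not tested.

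**Figure D4:**
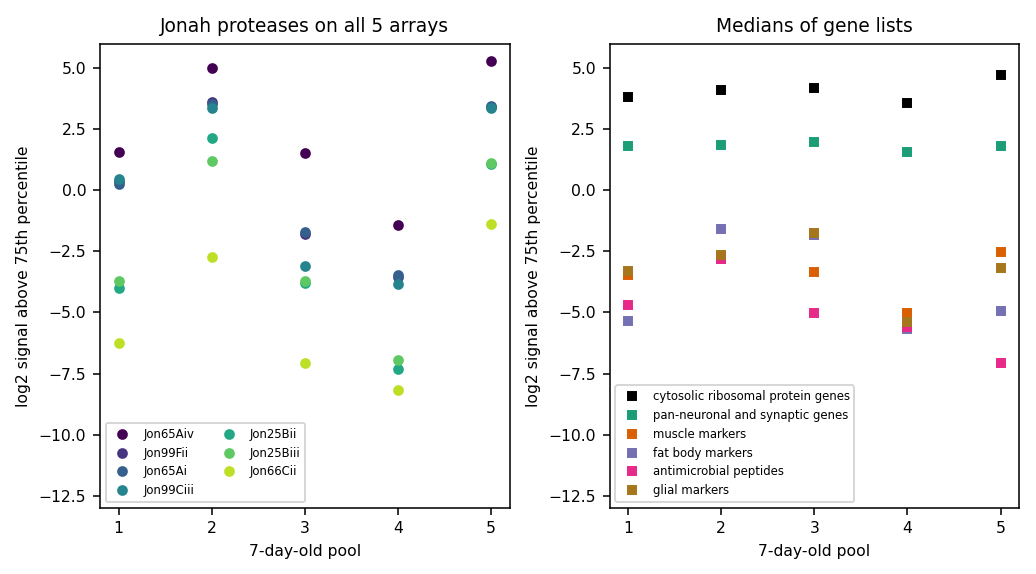
Levels in each of the 5 pools of 7-day-old flies (x axis), in log2 units above the 75th percentile (y axis). Left, 1 point per Jonah protease gene on all 5 arrays. Right, the median of each named gene list. Jonah levels are highest in pools 2 and 5 and lowest in pool 4, while the pan-neuronal median stays between 1.59 and 1.97.

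The medians of other lists spanned less than the Jonah median. The pan-neuronal median spanned 0.37 log2 units over the pools and the mitochondrial ribosomal median 0.22. The muscle median spanned 2.47, with pool 5 highest at -2.54 and pool 4 lowest at -5.01. The fat body median spanned 4.09, with pools 2 and 3 at -1.60 and -1.83 and the other 3 between -5.69 and -4.95, but only 1.71 over its members on all 5 arrays. The antimicrobial peptide median spanned 4.29, with pool 2 highest at -2.79 and pool 5 lowest at -7.08, and Drs, the drosomycin gene, was at 0.84 ± 1.98, ahead of DptA (-1.58 ± 1.61) and Drsl4 (-1.78 ± 1.82), with CecB on no array. The metallothionein gene MtnA, which binds heavy metals, was at 0.72 ± 1.30 and its regulator MTF-1 at -2.61 ± 0.76, and MtnC had -8.98, -0.41, -3.63, -4.87 and 1.91 in pools 1 to 5.

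A comparison within the age set the young arrays of slide 1 (pools 1 and 2) against those of slide 2 (pools 3, 4 and 5). Of 12973 genes 0 (0%) passed the threshold in limma, while 531 had an unadjusted p under 0.05. No member of any list passed. With so few arrays on each slide, no conclusion on an effect of the slide was drawn.

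Against the older ages, the number of genes well above background per array served as a summary of the whole profile. The 7-day-old arrays had 9446, 9057, 9163, 9260 and 9113 such genes, with a mean of 9208 ± 153 (SD, n = 5). The 35-day-old arrays had 8619 to 9284, with a mean of 8944 ± 248 (SD, n = 5), and the 45-day-old arrays 8227 to 9176, with a mean of 8959 ± 361 (SD, n = 6). The groups overlapped. The difference was 264 genes for 7 minus 35 days (exact two-sided permutation test, p = 0.0794, n = 5 and 5) and 249 genes for 7 minus 45 days (exact two-sided permutation test, p = 0.104, n = 5 and 6). Within slides the difference, 7 minus 35 days, was 386 genes on slide 1 and 118 on slide 2 (exact permutation p = 0.2 and 0.8). For 7 minus 45 days it was 142 and 370 (exact permutation p = 0.8 and 0.2). The few arrays per slide limit how small these p-values can be. All 7-day-old arrays lay in the second row of their slides and all 35-day-old arrays in the first. Age and row can therefore not be told apart in any comparison of 7 with 35 days.

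**Figure D5:**
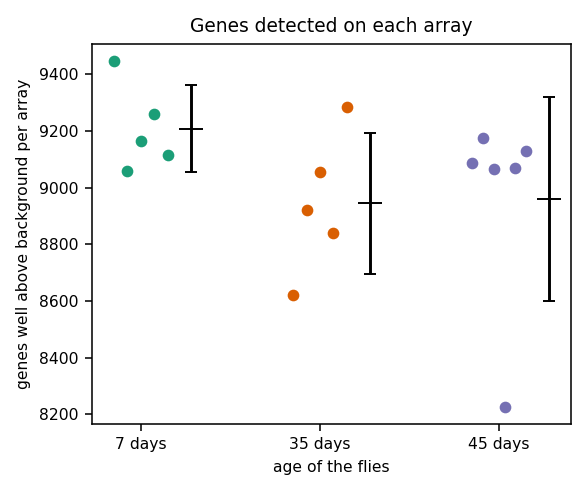
Number of genes well above background on each array (y axis, axis not starting at 0) at 7, 35 and 45 days of age (x axis), with 1 point per array and the mean with its SD beside them. The 7-day-old arrays lie between 9057 and 9446 and overlap both older groups.

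Few genes were on at one age and off at another. Well above background on all 5 arrays at 7 days and on none at 35 days were 6 genes, CG4259, CG4962, CG33777, ZnT33D, CG5853 and ppk30. Age and slide row cannot be told apart in this comparison. CG4259 had levels of -3.67, -3.89, -5.62, -2.83 and -6.15 in the 7-day-old pools, against -11.29 to -9.79 at 35 days (limma, adjusted p = 0.00926). Its 7-day mean was 17.7-fold above the 35-day line of detection. CG4962 had -4.97, -2.80, -4.31, -3.70 and -6.63 at 7 days, against -11.05 to -9.87 at 35 days (limma, adjusted p = 0.00926). Its 7-day mean was 17.1-fold above that line. CG33777 had -4.87, -5.69, -3.14, -6.37 and -3.28 at 7 days, against -11.37 to -10.05 at 35 days (limma, adjusted p = 0.00926). Its 7-day mean was 15.03-fold above the line. The line is the mean over the 35-day-old arrays of the lowest signal well above background, which ran between -9.11 and -7.80. A gene without the flag can lie above the lowest flagged signal of an array. Nep6 did so in 7-day-old pool 5, at -7.63 against -7.79, so the folds are no strict bounds. At 45 days CG4259 was well above background on 5 of the 6 arrays (mean -6.32), CG4962 on 2 (mean -7.83) and CG33777 on 1 (mean -9.34). None of them passed against that age. These 3 genes were picked for being on all 7-day-old arrays and on no 35-day-old array. That their ranges did not overlap between 7 and 35 days is therefore no separate support. Each lost its call with normexp background correction and with replicate number as a block, as CG33777 also did with quantile normalization.

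CG5853 also passed (limma, adjusted p = 0.0418), at -7.40 ± 0.41 at 7 days and -10.10 ± 0.76 at 35 days (SD, n = 5 each), but lost its call in 13 of 21 alternatives. ZnT33D, a zinc transporter gene by name, and ppk30 did not pass. The reverse pattern, on no 7-day-old array and on all 35-day-old arrays, was found for Nep6, CG34247 and phtm, none of which passed. Against 45 days, CG43341 was on all 5 young arrays and on no older one, and Obp28a on no young array and on all 6 older ones, and neither passed.

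Of the 13 genes that passed against 35 days, 10 were higher and 3 lower at 7 days, and no gene of the lists passed against either age. Age and slide row cannot be told apart for these 13 or for the median differences, 7 minus 35 days, given below. The 13 became 1355 without replicate 4 of the 35-day-old pools and 30 without replicate 5 of the 7-day-old pools, and the 0 genes against 45 days, with 1242 at an unadjusted p under 0.05 in limma, became 17 without replicate 5 of the 7-day-old pools and 12 without replicate 5 of the 45-day-old pools. The median difference, 7 minus 35 days, was 0.30 over the 21 pan-neuronal genes and 0.25 over the 25 muscle markers, against 0.36 over all genes, and 7 minus 45 days it was 0.22 and -0.66, against 0.23 over all genes. Limited to genes well above background on all arrays of either age compared, the median was 0.12 for 7 minus 35 days and 0.16 for 7 minus 45 days. The shift over all genes depended on the scaling: it was 0.21 with median scaling and -0.04 with quantile normalization for 7 minus 35 days, and 0.05 and -0.01 for 7 minus 45 days.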

How the data were processed

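RNA of the sorted pools was amplified and hybridized as Cy3-labelled cDNA to a custom Agilent array. The authors deposited 1 scanner file per array from Feature Extraction 11.5.1.1 (build dm3), whose processed intensity is background-adjusted and not normalized between arrays, with flags per spot. The deposited log2 table is centred per feature and served only as an alternative. Control spots and outlier spots were left out, log2 intensity minus the array's 75th percentile was taken, spots were averaged per feature and features per gene. Of 45366 features 34834 had a gene symbol, mostly by RefSeq accession. The study's lists of changed features were not used for names. Tests used limma 3.58.1 in R 4.3.3 over all genes with Benjamini-Hochberg adjustment, checked on simulated data, and exact permutation tests in scipy 1.17.1.

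The pools, the 54 gene lists and the tests were chosen with earlier results of these data known. The V-ATPase list was added after seeing the data. Named genes were the 30 brightest, the 3 brightest members of a list on all 5 arrays, the members on none where 5 or fewer, the 10 most variable, and genes switching between ages. Other genes named were chosen after their values were seen. Normalizations, background, flags, feature rules, blocks and left-out arrays were varied. The series describes the pools as biologically independent, and precision is set by how few arrays there are.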

Additional observations from a re-analysis of the deposited data

Results flagged for a closer look

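In 14 of 242 sets of 5 or 6 values examined, 1 array stood apart from the rest by more than Dixon's limit, where chance alone gives about 1 in 20. At 45 days, replicate 4 had 8227 genes well above background, against 9067 or more on the other arrays of that age. Among the levels in 7-day-old pools, pool 4 was lowest for Snap25 (4.21, next 4.55), Nca (2.78, next 3.63) and mRpL33 (2.42, next 3.61), and highest for the innexin gene ogre (-1.88, next -2.97). Pool 1 was highest for Ace (-0.0207, next -0.56), Ubx (-1.53, next -3.25), Pgi (4.74, next 3.54) and Vm34Ca (-4.66, next -7.07). Pool 5 was lowest for stol (0.43, next 1.18) and mia (-6.95, next -2.65) and highest for Ir68a (-4.61, next -7.95). Pool 2 was highest for Sh (1.45, next 1.27) and lowest for ppk29 (-8.57, next -7.15).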

How the results depend on the processing

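The counts of genes on all 5 arrays held within 1.5 times under every alternative run, from 6539 (a majority of features) to 8970 (the flag for a positive and significant signal), and 7908 to 8070 with 1 array left out. The count on no array was 716 with that flag, and 2284 to 2350 with 1 array left out. Of the 100 brightest genes 58 remained when a gene took its brightest feature, and 97 to 99 with 1 array left out. The comparison of slides gave 0 genes in each alternative run. For 7 minus 35 days the 13 genes became 6 with normexp background and 21 with only genes well above background on all arrays of a group, and 10 to 1355 with 1 array left out, with the highest when replicate 4 of the 35-day-old pools was dropped. For 7 minus 45 days the 0 genes became 1 with median scaling, 6 with normexp background, 10 with the brightest feature, 9 with only genes well above background on all arrays of a group and 4 with trend and robust moderation, and 0 to 17 with 1 array left out, with the highest when replicate 5 of the 7-day-old pools was dropped. The difference in genes per array ranged with 1 array left out over 183 to 349 for 35 days (exact permutation p = 0.0159 without 35-day-old replicate 5) and over 103 (without 45-day-old replicate 4) to 292 for 45 days (exact permutation p = 0.0476 without 7-day-old replicate 2). The causes were not tested.

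Replicate numbers are shared by the ages. Same-numbered arrays deviated from their age means with correlations of -0.06 to 0.17 (35 days) and -0.08 to 0.06 (45 days). Differently numbered arrays were not set beside them, so whether the numbers pair the arrays was not tested. With the replicate number as a block 1 gene passed for 7 minus 35 days and 1 for 7 minus 45 days. Normexp was run on median spot signals in place of the planned mean signals. For genes below background a level is only a bound.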

Other observations

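Of 9 circadian clock genes 8 were well above background on all 5 arrays, led by Pdp1 (2.92 ± 0.15), cyc (0.70 ± 0.42) and cry (-0.85 ± 0.26), while tim was at -5.12 ± 0.76, per at -6.13 ± 0.39 and Clk on 2 arrays. Matrix genes were on all 5 arrays for 13 of 14, led by SPARC (0.03 ± 0.40), Timp (-0.01 ± 0.47) and vkg (-0.10 ± 0.59), and Mmp1 stood at -5.78 ± 0.50 over 103 features.

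Among innexins, the gap junction proteins of flies, 7 of 8 genes were on all 5 arrays, led by Inx2 (0.33 ± 0.46), shakB (-2.68 ± 0.58), known from the giant fibre circuit, and ogre (-2.87 ± 0.58). Tubulin, actin and microtubule protein genes were on all 5 arrays for 13 of 18, led by Act5C (4.24 ± 0.23), betaTub56D (1.69 ± 0.64) and alphaTub84D (1.15 ± 0.30), with gammaTub37C on none. Of 4 small nucleolar RNA genes 1, snoRNA:U3:54Aa (-6.24 ± 1.47), was on all 5. Among long noncoding RNA genes 29 of 105 were on all 5 arrays and 41 on none, with lncRNA:CR40469 at 5.08 ± 0.36 and lncRNA:sphinx at 4.54 ± 0.29.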
